A study of Mus musculus with 4 samples.

Results

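The nuclear genes of oxidative phosphorylation were taken from the m6A site tables of mouse retinal organoids by symbol. A gene was a member when its name began with Nduf followed by a, b, c, s or v and a digit, with Cox and a digit from 4 to 8, with Uqcr, with Atp5, or with Sdha, Sdhb, Sdhc or Sdhd, and did not contain -ps. The rule used names alone and no measured value. It found 88 of the 20001 gene names with a listed site, and 80 of these had a listed site in all 4 libraries. By complex, 38 members belong to complex I, 4 to complex II, 8 to complex III, 17 to complex IV and 17 to complex V, with Ndufa4 and Ndufa4l2 counted in complex IV. The remaining 4, Sdhaf1 to Sdhaf4, match the name rule but are assembly factors of complex II. A further 12 names with -ps were left out by the rule.

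Oxidative phosphorylation takes place at the inner mitochondrial membrane. Complex I oxidises NADH, complex II oxidises succinate, complex III passes the electrons to cytochrome c, and complex IV passes them to oxygen. Complexes I, III and IV pump protons, and complex V, the ATP synthase, uses the gradient to make ATP. Most subunits are nuclear-encoded, with short and abundant mRNAs that are translated for import, and a small core is encoded in mitochondrial DNA. Photoreceptors of the mature retina are known for a high demand on this pathway.

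The study measured N6-methyladenosine (m6A) by GLORI, a chemistry that converts unmethylated A so that it is sequenced as G and leaves m6A to be read as A. All 4 libraries came from day 6 retinal organoids of 1 mouse line, an Rx:GFP reporter whose endogenous Mettl3 carries an FKBP12F36V-HA tag at the C-terminal end. Mettl3 encodes the catalytic subunit of the mRNA m6A methyltransferase. The untreated group had 2 libraries at 0 h, and the dTAG13 group had 2 libraries after 8 h in 125 nM dTAG13, a molecule that directs the tagged protein to degradation. The genotype field of the labels numbers the tagged gene upwards over the samples, from Mettl3 to Mettl6, while the title, the design and the protocol name METTL3, and the tag was taken as METTL3 here. Both groups carry the tag, there was no untagged line, and the labels do not say whether replicates were separate cultures, so p-values measure the spread between these libraries, which may be technical.

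The tables list called sites only. A position had to reach 15 reads, 5 of them A, and a level of 10% to be listed, where the level is the percentage of A among A and G reads, so an unlisted position can be unmethylated, below these limits or uncovered. Under all genes, the untreated libraries listed 260741 and 272174 sites, and 178739 and 201935 sites were listed with dTAG13. The median A and G reads per member site were 204, 217, 165 and 237 in untreated 1, untreated 2, dTAG13 1 and dTAG13 2, the order used throughout, and dTAG13 1 had the lowest member coverage. Gene coverage is a value deposited for each gene whose scaling by length is not given in the sources used here. The eye field genes Rax, Pax6, Six3, Six6 and Lhx2 had listed sites in all 4 libraries, as did the pluripotency genes Pou5f1, Nanog and Zfp42, with a coverage of Rax between 213 and 298 and of Pou5f1 between 67.6 and 122. With 2 libraries against 2, an exact two-sided permutation test cannot give a p below 0.333.

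Few sites were listed under these genes for the coverage they had. The members held 927, 854, 813 and 865 listed sites, or 0.356%, 0.314%, 0.455% and 0.428% of all sites listed under genes. Their median gene coverage was 397, 381, 214 and 323, against 82.7, 84.1, 76.4 and 97.8 over all genes listed in each library. Per 100 units of coverage the members had 1.75, 1.63, 2.65 and 1.76 listed sites, and all genes had 8.15, 7.90, 7.73 and 6.07, so the members were lower in each of the 4 libraries. Sites did not rise in proportion to coverage, so this value also falls with coverage itself. Between 200 and 500 units, members had 12.7 untreated sites per gene and other genes 30.1. At 1000 or more the values were 7.0 and 12.6. A spline fit of log2(sites + 1) on log2 coverage over all genes placed 57 of 83, 66 of 84, 56 of 83 and 65 of 86 members below the curve, where 46.8%, 46.7%, 47.7% and 48.3% of all genes lay below it. Over the 80 members in all 4 libraries, Spearman's rho between mean coverage and total listed sites was -0.06, against 0.47 over 12520 genes, as a description across genes, which are not independent. None of these values, nor the order of members by the fit given below, takes transcript length into account. How much of the difference from all genes comes with length was not tested.

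**Figure D1:**
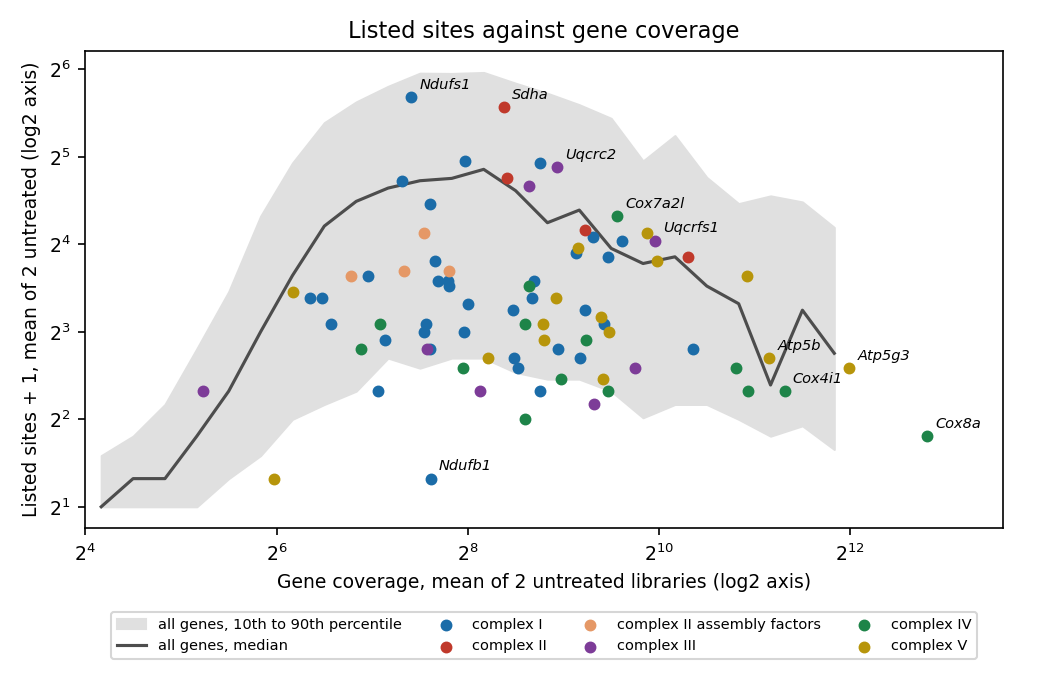
Listed sites plus 1 (mean of the 2 untreated libraries) against gene coverage (same mean), both on log2 axes. Points are members listed in both untreated libraries, coloured by complex; the line and band give the median and the 10th to 90th percentiles of all genes. Most members lie under the line, while Sdha and Ndufs1 lie above it.

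Ndufs1, the largest iron-sulfur subunit of complex I, had 47, 54, 36 and 39 listed sites at a coverage of 159, 180, 97.3 and 123. Sdha, the flavoprotein that oxidises succinate, had 52, 41, 40 and 45 sites at a coverage of 324, 340, 136 and 273. Uqcrc2, a core protein of complex III, had 37, 20, 29 and 45 sites. These were the 3 members farthest above the fit on average, by 1.44, 1.37 and 0.93 on the log2 scale. At the other end, among members listed in all 4 libraries, Ndufb1, a small accessory subunit of complex I, had 2, 1, 7 and 2 sites at a coverage of 186, 205, 196 and 260. Uqcrh, the hinge protein of complex III, had 5, 3, 2 and 3 sites, and Ndufb6, another accessory subunit, had 9, 1, 6 and 1. Cox8a, a small subunit of cytochrome c oxidase, had the highest coverage of all members, 7596, 6732, 3812 and 6558, and only 2, 3, 2 and 2 listed sites. Atp5g3, one of the genes for the c subunit that forms the rotor ring of complex V, had the highest coverage there, 3997, 4131, 1998 and 3265, and 4, 6, 4 and 4 sites.

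By complex, the number of sites differed between genes. In complex I, Ndufs1 had the most sites, and Ndufc2, a small accessory subunit, had the highest coverage, 1380, 1245, 735 and 1118, with 7, 5, 11 and 6 sites. In complex II, Sdhb, the iron-sulfur subunit, had 30, 22, 33 and 17 sites. In complex III, Uqcrc1 followed Uqcrc2 with 25, 24, 25 and 22. Uqcrfs1 had the highest mean coverage, from values of 972, 1012, 692 and 1082, with 15, 16, 13 and 18 sites. Uqcrq was higher than Uqcrfs1 in the dTAG13 libraries, at 709 and 1262. In complex IV, Cox7a2l led with 18, 20, 16 and 25 sites, followed by Cox6b2, the testis isoform of subunit 6b, with 8, 13, 5 and 9. In complex V, Atp5d, the delta subunit of the central stalk, had 18, 8, 16 and 23.

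Isoform genes differed widely in coverage. Of the c-subunit genes, whose newer names are Atp5mc1 to Atp5mc3, Atp5g1 had a coverage of 65.4 and 60.4, no listing and 58.7, Atp5g2 had 709, 714, 444 and 578, and Atp5g3 was the highest in every library. Cox4i1, the common isoform of subunit 4, had 2597, 2492, 1509 and 2563, with 3, 5, 7 and 1 sites. Its isoform Cox4i2 had 148, 87.6, 172 and 111, with 5, 7, 6 and 5 sites, so the gene with far less coverage had more listed sites in 3 of the 4 libraries. Cox7a1, the isoform of heart and muscle, was listed in untreated 1 alone, with 3 sites, while Cox7a2 had 7, 3, 13 and 4. Cox6a2, the muscle partner of Cox6a1, had no listed site, and neither had Cox7b2, Cox8b, Cox8c, Ndufb4c or Ndufs5.

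Listed methylation levels were also low. The median level of member sites was 16.7%, 16.7%, 18.3% and 17.9%, against 28.2%, 27.0%, 29.3% and 29.3% over sites of all genes. Sites at 90% or more made up 2.70%, 2.34%, 3.20% and 2.43% of member sites and 15.8%, 14.5%, 17.6% and 18.4% of the sites of all genes. Between 10% and 20%, the band next to the listing limit, lay 61.5%, 61.8%, 54.4% and 56.8% of member sites. Low-level sites are listed more readily at high depth, since at least 5 A reads are required, and how much of the difference from all genes comes with depth was not tested.

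After dTAG13, the number of sites listed under the members differed by less than the spread between libraries. The untreated mean was 890 ± 51.6 sites (SD, n = 2) and the dTAG13 mean 839 ± 36.8 sites (SD, n = 2). Their ratio was 0.942 (p = 0.667, exact permutation test), and the groups overlapped because dTAG13 2 exceeded untreated 2. Over all genes the ratio was 0.714 and the groups did not overlap (p = 0.333, the smallest the exact permutation test allows). The member share of the sites listed under genes was therefore 1.32 times as high with dTAG13, and both dTAG13 libraries lay above both untreated ones (p = 0.333, exact permutation test). Over member sites at 20% or more, the ratio of counts turned to 1.09. By level, the ratio was 0.850 for member sites at 10 to 20%, 1.08 at 20 to 40%, 1.13 at 40 to 90% and 1.04 at 90% or more, where all genes had 0.680, 0.686, 0.714 and 0.849.

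Ratios nearer to 1 were also seen in other genes of high coverage. Between 100 and 200 units of untreated coverage the ratio of dTAG13 to untreated sites was 0.808 over 16 members and 0.682 over 3546 other genes. Between 200 and 500 it was 0.936 over 29 members and 0.809 over 1820 other genes. From 500 to 1000 it was 0.927 over 20 members and 1.01 over 533 other genes, and at 1000 or more it was 1.50 over 10 members and 1.09 over 339 other genes. The members thus lay above the other genes in 3 of these 4 ranges and below them in the range from 500 to 1000. They also lay below them between 50 and 100, at 0.589 over 4 members and 0.640 over 5037 other genes. Between 15 and 50 the ratio was 0.5 for 1 member and 0.726 over 1165 other genes. None of these differences was tested. In all 4 ranges from 100 units upwards the members had fewer untreated sites per gene than the other genes, for example 12.7 against 30.1 between 200 and 500. In members and in other genes alike, the ratio was higher in the highest of these ranges than in the lowest.

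**Figure D2:**
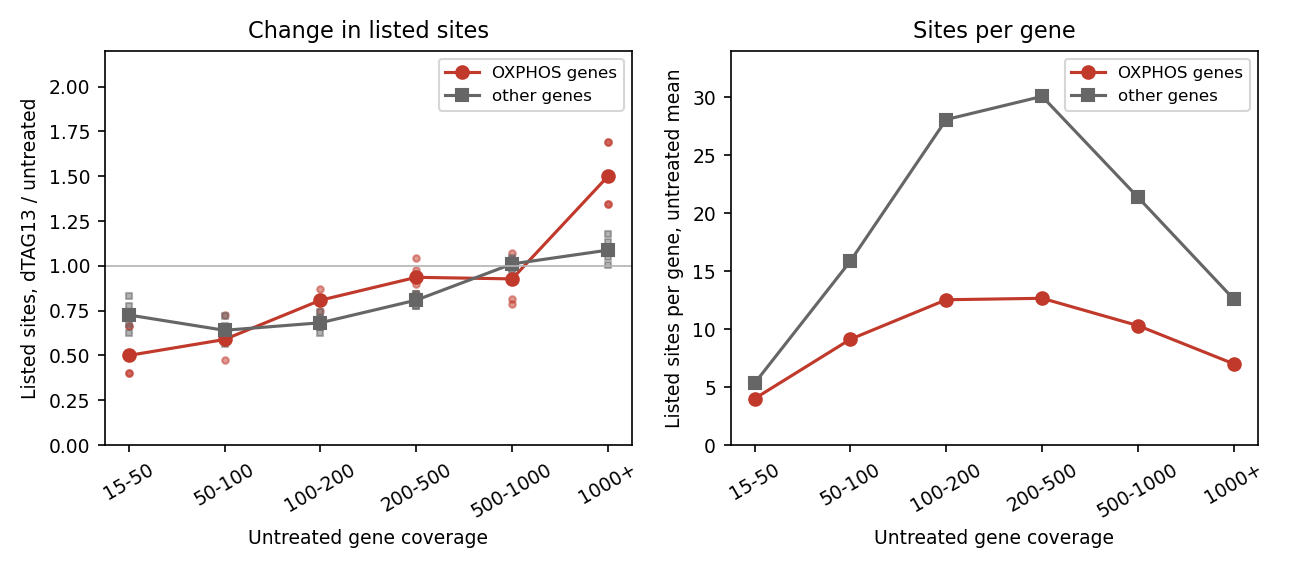
Left, the ratio of listed sites with dTAG13 to untreated for members and other genes in 6 ranges of untreated gene coverage; large symbols use group means and small ones the 4 pairs of single libraries. Right, listed sites per gene without dTAG13, which are lower in members than in other genes in every range; the lowest range holds 1 member and the next 4.

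Complex I, whose peripheral arm takes electrons from NADH, had the most members, 38, and the largest difference in number of sites. Its genes held 429, 422, 336 and 357 listed sites, a ratio of 0.814, and both dTAG13 libraries were below both untreated ones. The complex II assembly factors held 50, 54, 39 and 43, a ratio of 0.788, also without overlap. The complex II subunits held 114, 92, 105 and 101, with equal means of 103 in both groups. Complex III held 98, 84, 89 and 109, complex IV held 86, 100, 102 and 97, and complex V held 150, 102, 142 and 158. Their ratios were 1.09, 1.07 and 1.19, and in each of these 3 complexes the groups overlapped. The p of complex I and of the assembly factors was 0.333, the smallest possible, in the exact permutation test. Over all genes the ratio was 0.714, also without overlap, so both of these ratios lay nearer to 1 than that of all genes. Per 100 units of coverage, complex I had 3.38, 3.30, 4.54 and 2.93 listed sites, and the groups overlapped.

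**Figure D3:**
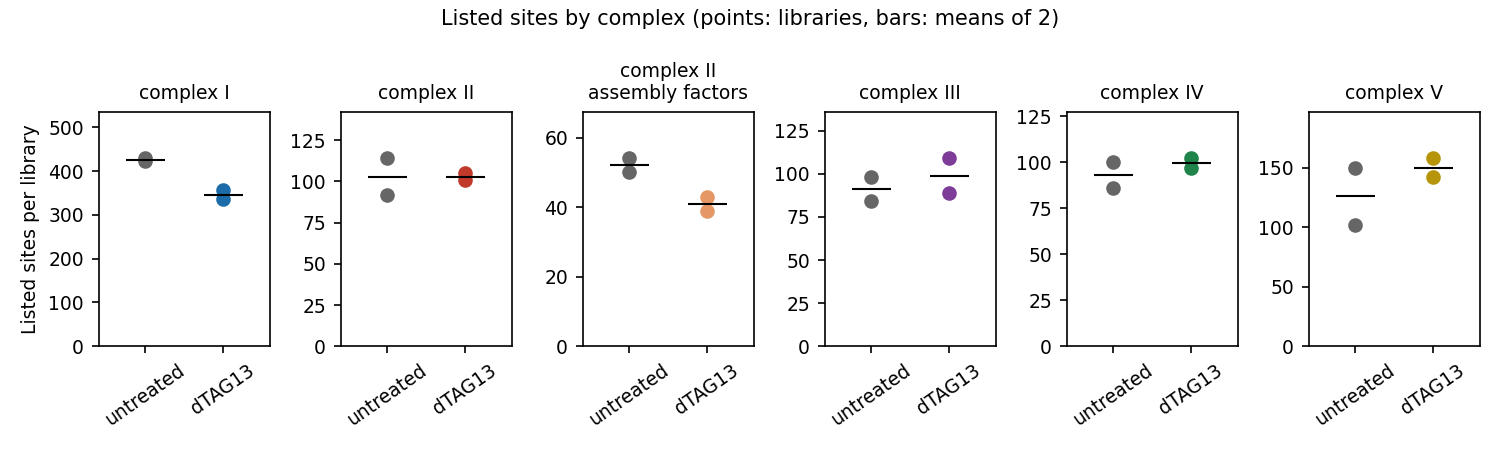
Listed sites per library for the genes of each complex, without and with dTAG13; points are single libraries and bars are means of 2. The dTAG13 points lie below the untreated points in complex I and in the complex II assembly factors, and the groups overlap in the other complexes.

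No member passed the test of the number of listed sites per gene. The edgeR quasi-likelihood test called 0 of 80 members at a Benjamini-Hochberg adjusted p of 0.05, and 0.0% of the 12449 genes tested. At an unadjusted p under 0.05 it had 1 member lower and 3 higher, 5.0% of the members, against 20.7% of all genes, of which 20.2% were lower and 0.466% higher. The number of sites was below that of both untreated libraries in both dTAG13 libraries for 13 of 80 members (16.25%), against 46.4% of all genes. It was above in both for 8 members (10.0%), against 4.51% of all genes. DESeq2 called 0 members as well.

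Atp5b and Atp5a1, both subunits of ATP synthase, had some of the larger rises in number of sites. Atp5b, the beta subunit that holds the catalytic sites, had 7, 4, 17 and 24 listed sites while its coverage was 2133, 2422, 1336 and 1799. Both dTAG13 libraries thus had more sites and less coverage than both untreated ones. The log2 change in sites was 1.87, with an adjusted p of 0.179 (edgeR). It was called higher when library totals of listed sites were used as sizes (edgeR, adjusted p = 0.00543, where 0.289% of all genes were called higher). With TMM sizes it was called as well (edgeR, adjusted p = 0.00471, 0.345% of all genes higher). Both measure each gene against the general fall in sites, and raised the log2 change of Atp5b to 2.35 and 2.36. Other genes at a coverage of 1000 or more did not share that fall, with a ratio of dTAG13 to untreated sites of 1.09. Atp5a1, the alpha subunit, had 13, 10, 22 and 19 sites at a coverage of 1762, 2106, 1042 and 1481, again without overlap, and a log2 change of 0.83 (edgeR, adjusted p = 0.238). Atp5c1, also of complex V, went the other way, with 15, 18, 14 and 11 sites and a log2 change of -0.40 (edgeR, adjusted p = 0.520). Cox6a1, a subunit of complex IV, had 2, 0, 8 and 10 sites and was called with TMM sizes alone. Its log2 change, 3.02, was the largest of the members tested (edgeR, adjusted p = 0.190).

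The 3 lowest log2 changes in sites among members listed in all 4 libraries were in complex I. Ndufa5, an accessory subunit, had 9, 6, 3 and 2 sites, Ndufb7 had 10, 11, 2 and 7, and Ndufs6b had 3, 11, 5 and 2. The groups did not overlap in Ndufa5 and Ndufb7 and overlapped in Ndufs6b, and the adjusted p-values were 0.241, 0.309 and 0.522 (edgeR). Among the same members, Ndufb1 and Atp5a1 had the highest changes after Atp5b, and that of Ndufb1 rested on the 7 sites of dTAG13 1.

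Single positions seldom recurred between libraries. Of 3040 member sites, 2669 (87.8%) occurred in 1 library, 329 in 2, 36 in 3 and 6 in every library, where 91.4% of the sites of all genes were listed in 1 library. The untreated libraries shared 109 member sites and the dTAG13 libraries 67, and the mixed pairs shared 72, 95, 49 and 81. Among sites with at least 50 reads in untreated 1, 12.2% (Wilson 95% interval 10.1% to 14.6%) were listed in untreated 2, 8.19% (6.51% to 10.3%) in dTAG13 1 and 11.0% (9.02% to 13.3%) in dTAG13 2. Among those of untreated 2, 13.4% (11.2% to 16.0%) were listed in untreated 1, 6.06% (4.59% to 7.97%) in dTAG13 1 and 9.68% (7.79% to 12.0%) in dTAG13 2. The interval of dTAG13 2 overlapped that of the other untreated library in both cases, that of dTAG13 1 overlapped it slightly for untreated 1 and not for untreated 2. Intervals cover counting error only. Recovery in dTAG13 was 0.687 of that between the untreated libraries, against 0.557 over all genes. Over member sites at 20% or more it was 0.437, against 0.364 over all genes.

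Shared sites of high and low level differed after dTAG13. Of the 109 sites shared by the untreated libraries, 79 were listed in neither dTAG13 library and 27.5% in at least one, against 20.0% over all genes. Of the 17 with an untreated mean of 40% or more, 13 were listed in neither and the 4 still listed were all lower, with a median difference of -29.4 percentage points. At that level 23.5% of member sites and 14.2% of the sites of all genes were still listed, and the median difference over all genes was -33.4 points. Of the 55 with a mean under 20%, 40 were listed in neither, while of the 15 still listed 4 were lower and 11 higher. A site under 20% can only fall by a little before it leaves the tables, so falls among these sites cannot be seen here. In the other direction, of the 67 member sites shared by the dTAG13 libraries, 49 were listed in neither untreated library. Shared sites listed in a single group were thus seen in both directions.

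The position with the clearest change was in Cox7a2l, which encodes a factor that joins complexes III and IV into supercomplexes. At chr17:83809721 on the minus strand the level was 47.1%, 52.1%, 13.5% and 11.5%, from 994, 1124, 635 and 870 reads. Both dTAG13 libraries were far below both untreated ones, and the mean fell from 49.6% ± 3.57 (SD, n = 2) to 12.5% ± 1.45 (SD, n = 2). In a quasi-binomial model over 2321 sites, each listed with 20 reads or more in every one of the 4 libraries, its adjusted p was 0.00891. It was 1 of the 6 member sites tested, and 2.2% of all tested sites were called lower. A position that was unlisted in any library could not be tested, so these counts cover only sites that stayed listed. Left with 3 libraries, that model called 0 of all sites, and the adjusted p of this position was between 0.156 and 0.186. Over the summed reads of its tested sites, Cox7a2l was 1 of 5 member genes tested and the one called lower (adjusted p = 0.00665, quasi-binomial model, 4.53% of 1016 genes called lower). The adjusted p of the position ranged from 5.35e-129 (Fisher's exact test on pooled reads, which leaves out the spread between libraries) to 0.186 over all alternatives.

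A second high site in Cox7a2l was lost from the tables. At chr17:83809846, 51.2% and 33.7% in the untreated libraries, no site was listed with dTAG13. The gene had 3 sites listed in 3 or 4 libraries, within 424 bases of each other. They did not all go the same way. At chr17:83809925 the level was 12.9% and 14.4% without dTAG13, unlisted in dTAG13 1 and 19.9% of 287 reads in dTAG13 2. The position chr17:83809501, lower in the dTAG13 library that listed it, is described below. Its number of listed sites, 18, 20, 16 and 25, and its coverage, 779, 728, 497 and 577, showed no call in either test.

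The other 5 tested member sites were low in every library and none was called. In Atp5l, subunit g of ATP synthase, chr9:44824602 had a level of 18.7%, 26.8%, 13.1% and 16.5%, and both dTAG13 values were below both untreated values (adjusted p = 0.626, quasi-binomial model). Ndufs1 at chr1:63215672 had 22.1%, 22.9%, 13.7% and 18.8%, also without overlap (adjusted p = 0.584). At chr1:63196398 of the same gene the levels were 12.2%, 18.7%, 14.4% and 30.0% and the groups overlapped. In Cox5a, a subunit of complex IV, chr9:57428686 stayed within a narrow range, 10.7%, 10.6%, 11.8% and 10.2% from 8350, 7536, 3886 and 6628 reads, close to the 10% limit for listing. In Atp5a1, chr18:77869628 had 15.4%, 12.9%, 16.7% and 11.0%.

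Positions of high level in both untreated libraries were mostly unlisted with dTAG13. In Uqcrfs1, the Rieske iron-sulfur protein of complex III, chr13:30724705 had 81.9% and 93.4% without dTAG13, was unlisted in dTAG13 1 and had 11.8% of 1746 reads in dTAG13 2. At chr13:30724887 of the same gene the untreated levels were 43.1% of 2685 reads and 48.7% of 1601 reads, and neither dTAG13 library listed it. In Sdhaf4, chr1:24035295 had 69.0% and 57.5%, and in Sdha, chr13:74470532 had 60.6% and 43.1%, both unlisted with dTAG13. Ndufa13, a complex I subunit also known as GRIM-19, had 100% of 192 and of 119 reads at chr8:70354901 and no listing with dTAG13. In Sdhaf2, which promotes flavin attachment to Sdha, chr19:10479818 had 66.4% and 30.5% and was unlisted with dTAG13. Ndufv3, an accessory subunit of the NADH-oxidising arm, behaved differently at chr17:31746469, with 96.4% and 100% of 55 and 79 reads, no listing in dTAG13 1 and 76.4% of 140 reads in dTAG13 2. In Ndufb11, chrX:20483519 had 95.5%, 28.2%, no listing and 42.6%, so the untreated libraries themselves differed more than the groups. Where a position is unlisted, its coverage there is unknown, so these are not measured falls.

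**Figure D4:**
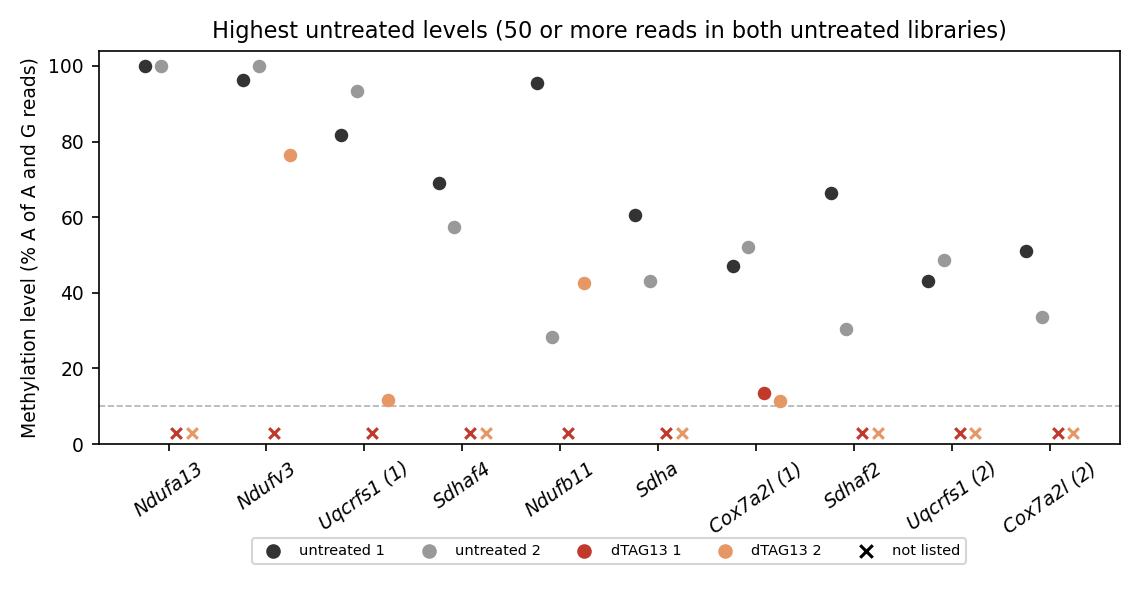
Methylation level (percentage of A among A and G reads) per library at the 10 member sites with the highest mean untreated level among those that had 50 or more reads in both untreated libraries; a number tells apart positions of 1 gene. Crosses mark libraries where the site was not listed and have no value, and the dashed line is the 10% listing limit. At Cox7a2l (1) all 4 libraries have a value, 47.1% and 52.1% without and 13.5% and 11.5% with dTAG13.

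The 36 member sites listed in 3 libraries could not be tested in the model, and they went both ways. Of those listed in both untreated libraries, more had a dTAG13 value above both untreated values than below both. A level under 10% would not be listed, so falls past that limit are not among them. In Cox8a, chr19:7192591 had 33.2% of 4055 reads and 30.2% of 3323 reads without dTAG13, was unlisted in dTAG13 1 and had 10.3% of 3267 reads in dTAG13 2. Sdha at chr13:74471036 had 44.2% and 26.1% without dTAG13 and 10.1% of 387 reads in dTAG13 2. Cox7a2l at chr17:83809501, 220 bases from the tested site of that gene, had 23.2% and 32.6% and then 13.2% of 882 reads. In each of these 3 positions the one dTAG13 value was below both untreated values. Other positions were higher in the one dTAG13 library that listed them. Another Sdha position, chr13:74481264, had 42.2% and 15.3% without dTAG13 and 64.7% of 34 reads in dTAG13 2. Ndufb9 had 22.8% and 15.2% at chr15:58811302 and 52.3% of 44 reads in dTAG13 2. Sdhaf3, a factor for maturation of the iron-sulfur subunit, had 16.8% and 18.4% at chr6:7039297 and 50.1% of 353 reads in dTAG13 2, and Atp5j had 12.1% and 16.0% at chr16:84628237 and 38.7% of 256 reads there. Cox5b, a nuclear subunit of complex IV, had 18.0% and 14.8% at chr1:36730726 and 16.1% of 3428 reads in dTAG13 2, which lies between the untreated values. In Ndufs3, a core complex I subunit, positions 2 bases apart, chr2:90728986 and chr2:90728988, were listed in the same 3 libraries, at 43.4%, 28.6% and 29.8% and at 18.6%, 14.1% and 20.6%.

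Both dTAG13 libraries and no untreated one listed 49 member sites. Their mean level had a median of 18.4%, with 28 under 20% and 3 at 40% or more. Those with the most reads were Atp5a1 chr18:77870269 with 11.2% and 11.9%, Sdhc chr1:170957280 with 17.8% and 13.0%, and Ndufc2 chr7:97056832 with 12.9% and 20.6%. These 3 had lower levels than some with fewer reads, since the highest mean among the 49 was 58.0%.

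Gene coverage of the members was lower with dTAG13 in most cases, and no gene was called. After centring each library on the median log2 coverage of the 12520 genes listed in all 4 libraries, 66 of 80 members (82.5%) had a mean below that of the untreated libraries, against 56.7% of all genes, and the median log2 change was -0.33, against -0.07 over all genes. Both dTAG13 libraries lay below both untreated ones for 45 of 80 members (56.25%), against 29.2% of all genes, and above both for 3 members (3.75%), against 17.0% of all genes. limma called 0 members and 0.0% of all genes. At an unadjusted p under 0.05 it had 17 members lower and 1 higher, 22.5% of the members against 12.7% of all genes, of which 8.34% were lower and 4.4% higher. Without dTAG13 1, the library of lowest member coverage, the median member change was -0.23, and without dTAG13 2 it was -0.47. In bulk samples, fewer cells of a type and less RNA per cell cannot be told apart.

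The median log2 coverage change was -0.32 in complex I, -0.60 in complex II, -0.09 in complex III, -0.27 in complex IV and -0.49 in complex V. Uqcrc1, a core protein of complex III, had a coverage of 359, 438, 162 and 248 and the lowest change, -0.90 (SE 0.21, limma adjusted p = 0.363). Ndufa9, an accessory subunit of complex I, had 602, 670, 297 and 366 and a change of -0.86. Atp5j, coupling factor 6 of ATP synthase, had 411, 474, 214 and 271 and a change of -0.79. In these 3 genes the groups did not overlap. Uqcr11, a small complex III subunit, was the highest at 181, 200, 267 and 278 and a change of 0.60 (SE 0.22, limma adjusted p = 0.374), again without overlap. Ndufc1, with 175, 91.5, 189 and 160, and Cox4i2, an isoform of subunit 4, with 148, 87.6, 172 and 111, were next at 0.54 and 0.36. Their untreated libraries differed widely. Without untreated 2 the changes were 0.04 in Ndufc1 and -0.04 in Cox4i2, and without dTAG13 1 that of Cox4i2 was -0.18. Sdhc, a membrane anchor of complex II, had the highest coverage there, 1376, 1148, 528 and 936.

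**Figure D5:**
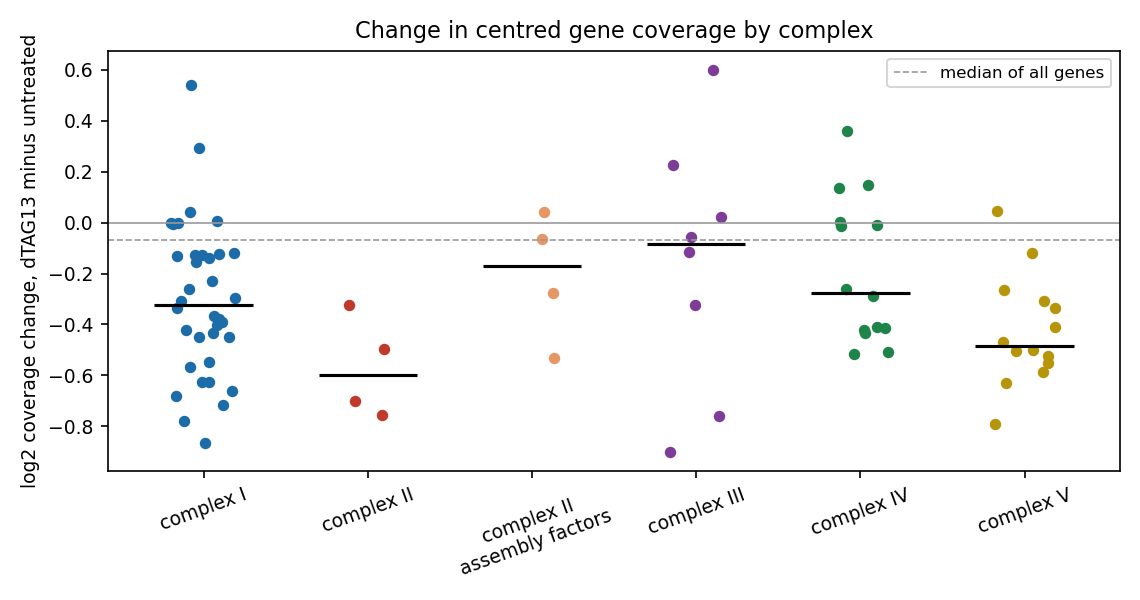
Difference in centred log2 gene coverage, dTAG13 minus untreated, for the members listed in all 4 libraries by complex; points are genes and bars are medians. The dashed line is the median of all genes at -0.07, and the median of every complex lies below it.

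Promoters of the members were searched for short motifs because most of their coverage values were lower with dTAG13. RefSeq promoter windows (GRCm38.p6, 250 bases before to 50 after the gene start) matched 71 members by symbol. Of 8 motifs searched on both strands, the NRF1 consensus was present in 18 of 71 members (25.4%) and 5.19% of 27025 genes. CGGAAG, the core of ETS-family sites bound by GABPA, was present in 33 members (46.5%) and 18.8% of genes, and AAGATGGC, the YY1 core, in 10 members (14.1%) and 3.19% of genes. CCAAT was as frequent in members (42.3%) as in all genes (41.1%), and TATAAA was present in 9.86% of members and 15.7% of genes. The exact palindrome within the NRF1 consensus was present in 7.04% of members and 1.07% of genes, CCGGAAGT, which contains the second, in 7.04% and 4.31%, and CTCTTTCC in 1.41% and 3.57%. The search was made with results known and no count was tested. The 27025 genes were not limited to genes with a listed site or to genes of like coverage. Motifs were not compared between members of lower and of higher coverage with dTAG13, so a link to the coverage change was not tested. A match is a sequence description, and 5 of the 18 windows with the first motif are shown, on the gene's strand and with the motif in capitals, since they belong to members described above or to c-subunit genes.
Cox6a1, chr5:115349101-115349130, minus strand: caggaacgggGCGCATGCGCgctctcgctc
Atp5g2, chr15:102671070-102671099, minus strand: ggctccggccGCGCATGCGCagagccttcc
Atp5g3, chr2:73911295-73911324, minus strand: gagccgcaccGCGCTTGCGCgcccagcccc
Uqcrc1, chr9:108936643-108936672, plus strand: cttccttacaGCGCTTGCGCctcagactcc
Ndufa5, chr6:24527697-24527726, minus strand: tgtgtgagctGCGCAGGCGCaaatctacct
These coordinates are GRCm38.p6 and must not be set beside the site coordinates, which follow the tables.

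The conversion rate of a gene, the share of its A read as G, was measured from the same tables. The median over members listed in all 4 libraries was 95.8%, 96.5%, 96.5% and 96.5%, and over all genes 95.8%, 96.2%, 96.9% and 96.7%. Both dTAG13 libraries lay above both untreated ones in each case, by 0.381 percentage points on average for members and 0.770 for all genes. Gene by gene, both dTAG13 rates lay above both untreated rates for 30 of 80 members (40.9% of all genes) and below for 7 (6.05% of all genes). Without untreated 1 the member difference was 0.053 points. The part of conversion in the number of listed sites was not tested.

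Some members have near-identical copies among the gene names. The names with -ps left out by the rule held 52, 52, 59 and 69 listed sites in total. Cox7c had no site in untreated 1 and a coverage of 80.0, 40.4 and 59.8 in the others, while Cox7c-ps1 had 727, 756, 502 and 522. Uqcrh had a coverage of 283, 276, 200 and 222, and Uqcrh-ps2 had 1069, 874, 636 and 972. Ndufa12 had 66.8, 112, 63.2 and 87.1, and Ndufa12-ps had 362, 352, 242 and 295. Ndufs5 had no listed site at all and Ndufs5-ps had a coverage between 115 and 163. Ndufb4b and Ndufs6b, whose names add a letter to that of another member, were kept as members by the rule. Ndufb4 was listed in untreated 2 alone, at a coverage of 39.3, and Ndufb4b had 382, 431, 174 and 465. How reads matching both names of such a pair were assigned is not given in the sources used here, so coverage and sites of these members are uncertain. With the 12 -ps names included, the ratio of listed sites was 0.958, close to the 0.942 of the members alone.

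Of 4 related gene lists, none had a called gene in coverage, listed sites or site level. Assembly factors and electron carriers of the chain, 44 of 47 listed, had a site ratio of 0.682 and a median log2 coverage change of -0.01. The 14 citric acid cycle genes had a site ratio of 0.764 and a median coverage change of -0.51, with 13 of 14 below 0. Of 11 regulators of nuclear mitochondrial genes, 9 could be tested for coverage, with a median of -0.03 and a site ratio of 0.788. Of the 13 subunits encoded in mitochondrial DNA, 12 were listed, with 53, 26, 86 and 56 sites, and both dTAG13 libraries were above both untreated ones.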

How the data were processed

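Site tables of 4 GLORI libraries were used as deposited, 1 per library with no pooling. The authors' deposited counts are A and G reads and A reads per listed position, not normalised, and the deposited fraction equals A over A and G reads at 100% of sites. The gene conversion fraction, the coverage signal per gene and the p-value of each site were also deposited by the authors; the largest adjusted p-value listed was 0.00401. The aligner, the site caller and duplicate handling are not given in the sources used here. Per the submitters' processing notes the build was mm10, but 140 of 3040 member sites (4.61%) lay inside the GRCm38 interval of their gene, so coordinates are given as listed and sequence context, exons and UTRs were not assigned.

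The members and gene lists were chosen with earlier results of these data known. Site levels (at least 20 reads in all 4 libraries) were tested with a quasi-binomial model moderated by limma 3.58.1, site numbers (at least 10 over 4 libraries, equal library sizes) with edgeR 4.0.16 quasi-likelihood, with DESeq2 1.42.0 as an alternative, and log2 coverage with limma, in R 4.3.3; p-values were adjusted by Benjamini-Hochberg over all features, with a threshold of 0.05. Single values were compared by exact two-sided permutation. The named-gene rule took members with a site in all 4 libraries or a call, the 2 with most sites and the highest coverage in each complex, and the 3 highest and 3 lowest in each of site number against coverage, site change and coverage change, the isoform sets of c subunit, Cox4i, Cox6a and Cox7a, and matching symbols with no site; a gene that the rule names is not reported here. Named sites were those in all 4 libraries, those in 3 (a selection is shown, chosen after their values were seen), the 10 highest sites with at least 50 reads in both untreated libraries and the 3 with most reads listed in the dTAG13 libraries alone. Tests were checked on simulated data, first with small and, when those were hardly recovered, with larger changes, so a count of 0 does not show that genes did not change. Other genes named, such as Cox6a1, Cox7c and those with copies, and the 8 promoter motifs (chromosome 18 not searched), were chosen after their values were seen. Alternatives left out each library, changed read and level minimums, the test or the scaling, or used the replicate number as a block.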

Additional observations from a re-analysis of the deposited data

How the results depend on the processing

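Counts of called members that were 0 mostly stayed 0 in the alternatives. The calls at site and gene level rest on all 4 libraries and were lost with the replicate block. The site call was kept with limma on log2 odds and with edgeR. Leaving out 1 library at a time gave ratios of listed sites between 0.905 and 0.982, of sites per coverage between 1.04 and 1.56, of the share of sites between 1.24 and 1.41 and of recovery between 0.563 and 0.811, a conversion difference between 0.053 and 0.724 points, a median coverage change between -0.47 and -0.23, and 0 called members in every test, site and gene level included. With member sites at 20% or more these 4 ratios were 1.09, 1.62, 1.49 and 0.437. The share of sites, the coverage median, their alternatives and the inclusion of -ps names were added after seeing the data. Called member sites were 3 with Fisher's exact test on pooled reads; members called in number of sites were 1 with library totals and 2 with TMM. The replicate numbers do not pair the libraries: same-numbered deviations correlated at 0.00227 for coverage, 0.00473 for site number and 0.0193 for level. With the replicate block the ratios were 0.943, 1.28, 1.32 and 0.697, the conversion difference 0.381, the coverage median -0.33, and called members were 0 in every test; called sites and genes over all features were also 0. Directions turned at values that were not called: Atp5a1 chr18:77869628 to 0.952 points without untreated 1 and 2.55 without dTAG13 2 (range from -3.15), Ndufs1 chr1:63196398 to -0.998 without dTAG13 2 (up to 14.6), Cox5a chr9:57428686 to -0.453 without dTAG13 1 (up to 1.15), Cox4i2 coverage to -0.04 without untreated 2 and -0.18 without dTAG13 1 (up to 0.88), and Ndufs6b sites to 0.21 without untreated 2 (down to -1.75). The cause was not tested.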

Other observations

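Sites were also listed under the names of copies of members. How reads matching both a copy and its parent gene were assigned is not given, so these sites cannot be credited to the copy alone. In Cox5b-ps, chr13:21685530 on the minus strand was listed in all 4 libraries at 15.5%, 12.6%, 13.3% and 17.1% from 465, 779, 384 and 743 reads, and the groups overlapped (adjusted p = 0.878, quasi-binomial model). In Cox7c-ps1, chr17:26121092 was listed at 13.0%, 11.3% and 13.2% in untreated 1, dTAG13 1 and dTAG13 2. Atp5pb-ps had 1, 7, 12 and 8 listed sites, with both dTAG13 libraries above both untreated ones.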
